A study of Mus musculus with 6 samples.

Results

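The genes described here are 10 heat shock chaperone genes: the small heat shock protein genes *Hspb1*, *Hspb8* and *Cryab*, the co-chaperone gene *Bag3*, the HSP70 genes *Hspa1a*, *Hspa1b* and *Hspa8*, the HSP110 gene *Hsph1*, the HSP40 gene *Dnajb1* and the HSP90 gene *Hsp90aa1*. They were taken by symbol from the 18207 distinct symbols of the deposited expression table, and all 10 had enough reads to be compared. They were chosen by function around *Hspb8*, whose log2 fold change between genotypes in these same 6 libraries was already known. The differences of these 10 genes between genotypes are therefore given as a description, with standard errors (SE) and without p-values. RNA was sequenced from luminal progenitors, the cells of the mammary epithelium that can give rise to milk-producing alveolar cells, sorted as Lin-CD24loCD29+CD61+ from mammary glands of adult nulliparous mice. The compared groups were Robo1+/+ mice and their Robo1-/- littermates, which carry the germline allele Robo1tm1Matl in every tissue and lack the axon guidance receptor ROBO1. Each genotype had 3 libraries (gh03, gh09 and gh15 for Robo1+/+ and gh06, gh12 and gh18 for Robo1-/-), and each library pooled 2 animals. No other treatment or allele was given in the labels, and all libraries came from dissociated, antibody-stained and sorted cells.

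Chaperones bind proteins that have lost their fold. Small heat shock proteins hold such clients without using ATP, and HSP70 proteins refold them in ATP-driven cycles started by HSP40 proteins and reset by HSP110 proteins. BAG3 binds both HSPB8 and HSP70 and passes clients from HSPB8 to a form of autophagy. Transcription of most of these genes is induced by heat shock factor HSF1, and the same genes are known to be induced when tissue is dissociated into single cells. HSPA8 is the HSP70 that cells make without stress, and CRYAB is abundant in muscle and in myoepithelial cells.

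HSF1 binds repeats of the bases GAA in alternating orientation, of which the pair GAANNTTC and the pair TTCNNGAA are the smallest units. Promoter sequence (250 bases before to 50 bases after the transcription start) from RefSeq on GRCm38.p6 was matched for 7 of the 10 genes. It was not matched for *Cryab*, *Hspa8* and *Hsp90aa1*. Of the 7 matched genes, 6 had at least 1 of the pairs, and *Dnajb1* had neither. Both pairs read the same on the opposite strand. Of all 32851 promoters of the same length, 15.1% had at least 1 of the pairs. The windows below are shown because they set *Hspb8* and *Bag3* beside the HSP70 genes at the sequence most tied to the heat shock response. Each runs 5′ to 3′ along the gene's strand, with the pair in capitals and up to 10 bases on either side.
*Hspb8*, chr5:116422845-116422872, minus strand, pair from base 3 of the transcript: gaagccaggaGAAGTTTCtaggctcgcg
*Bag3*, chr7:128523615-128523632, plus strand, pair from base 43 of the transcript, at the end of the window: gatgggaccaGAAGTTTC
*Hspb1*, chr5:135887792-135887819, plus strand, pair from 117 bases upstream: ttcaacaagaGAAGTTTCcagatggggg
*Hspb1*, chr5:135887812-135887839, plus strand, pair from 97 bases upstream: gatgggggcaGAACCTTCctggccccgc
*Hspa1a*, chr17:34972243-34972270, minus strand, pair from 104 bases upstream: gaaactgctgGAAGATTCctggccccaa
*Hspa1b*, chr17:34959325-34959352, minus strand, pair from 104 bases upstream: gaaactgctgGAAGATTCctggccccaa
*Hsph1*, chr5:149636352-149636379, minus strand, pair from 33 bases upstream of 1 of its 2 listed starts and 54 upstream of the other: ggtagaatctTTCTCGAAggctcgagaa
*Hsph1*, chr5:149636283-149636310, minus strand, pair from base 37 or 16 of the transcript by the same starts: atgctgcagaTTCTGGAAagttctcctc
*Hsph1*, chr5:149636278-149636305, minus strand, pair from base 42 or 21, overlapping the one before: gcagattctgGAAAGTTCtcctcagtag
*Hspb8*, *Bag3* and the first *Hspb1* window held the same 8 bases, and the *Hspa1a* and *Hspa1b* windows were identical. Over the whole 300 bases, the promoters of *Hspa1a* and *Hspa1b* differed at 4 positions.

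The libraries held between 9727191 and 17433868 reads. With limma, 0 of 13692 tested genes passed an adjusted p of 0.05, and 231 (1.69%) passed it before adjustment. The count tests on the recovered reads gave 0 and 221 (1.61%) with edgeR, and 1 (0.0054%) and 335 (1.81%) with DESeq2. *Robo1*, the targeted gene, averaged 37.1% of its Robo1+/+ level in Robo1-/- libraries, without overlap, and values per gene do not show from which exons the remaining reads came. All 8 genes listed as luminal progenitor markers were present in every library, with summed normalized counts from 55952 to 115873. The highest means among them were those of *Krt8* (35858) and *Krt18* (27985), luminal keratin genes that are not particular to progenitors. In gh18 these keratins had 11182 and 11522. The 10 basal and myoepithelial markers summed to between 810 and 2272, and none of them was at 0 in any library. Summed markers of hormone-sensing luminal cells lay between 29328 and 45201 in the Robo1+/+ group and between 44946 and 55348 in the Robo1-/- group. Of these 6 markers, 6 had a positive log2 fold change with all libraries (median 0.45), 5 with the GC correction (median 0.33) and 6 without gh18 (median 0.44). Summed leukocyte (93.4 to 155), endothelial (168 to 2216), fibroblast (307 to 1039), adipocyte (57.7 to 372) and erythroid markers (58.2 to 261) overlapped between genotypes. Of the 5 leukocyte markers, *Ptprc*, *Cd79a* and *Lyz2* had under 3 reads in at least 1 library, and *Cd68* had 45 to 171 reads. Of the 5 endothelial markers, *Cdh5*, *Kdr* and *Tek* had under 3 reads in at least 1 library, and *Pecam1* had 16 to 98. The endothelial sum was mostly *Vwf*, with normalized counts of 2167, 1437 and 570 in the Robo1+/+ group and 1054, 357 and 140 in the Robo1-/- group, whose mean was 37.2% of the Robo1+/+ mean with overlap. The part of other cell types in the values that follow was not tested. Replicate gh18 stood apart. Relative to the other 5 libraries, it had lower log2 values the higher the GC content of the transcript (Spearman's rho = -0.81 over 12453 genes, which are not independent replicates). Computed likewise, rho was between 0.17 and 0.61 in the other libraries. Since gh18 was part of the reference for each of those, their values are not independent of its own. Fold changes are therefore given in 3 forms: with all 6 libraries, with all 6 after a GC correction, and without gh18.

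The chaperones differed widely in abundance. In Robo1+/+ luminal progenitors, normalized counts per kilobase of the longest coding transcript were 12723 ± 2877 (SD, n = 3) for *Hspa8*, 5729 ± 976 for *Hsp90aa1*, 3284 ± 943 for *Hspb1* and 1934 ± 434 for *Dnajb1*. On the same scale the levels were 633 ± 226 for *Hspa1b*, 592 ± 138 for *Hsph1*, 521 ± 89.0 for *Bag3*, 385 ± 174 for *Hspb8*, 371 ± 160 for *Hspa1a* and 269 ± 45.2 for *Cryab*. The constitutive HSP70 was thus the most abundant of the 10 genes per length, and *Hspb8* and *Cryab* were among the 3 least abundant. In this order *Hspa8* and *Hsp90aa1*, *Hsp90aa1* and *Hspb1*, and *Dnajb1* and *Hspa1b* were neighbours whose 3 libraries did not overlap. The ranges of *Hspb1* and *Dnajb1* overlapped, as did those of each neighbouring pair from *Hspa1b* down to *Cryab*. With the mean length of all coding transcripts of a gene in place of the longest, *Hsph1* (942 per kilobase) moved above *Hspa1b* (708), and *Cryab* (449) above *Hspb8* (385) and *Hspa1a* (371). In the whole table *Hspa8* was above 99.8% of tested genes per kilobase, and *Cryab* above 68.7%.

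**Figure D1:**
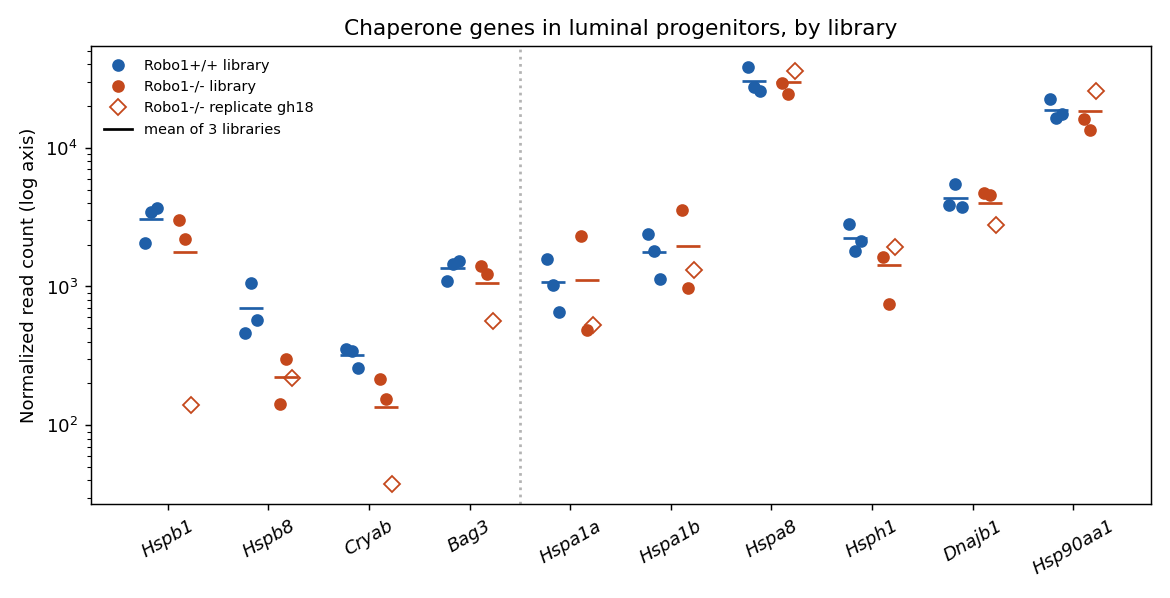
Normalized read count (log axis) of the 10 chaperone genes in each library. Filled circles are libraries of Robo1+/+ (blue) and Robo1-/- (orange), the open diamond is Robo1-/- replicate gh18, and the lines are means of 3 libraries. The genotypes are apart for *Hspb8* and *Cryab*, and gh18 lies at 140 for *Hspb1*, below every other library.

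*Hspb8* (kgCluster19612; chromosome 5 from 116858500 to 116872873 on NCBI37/mm9, the build of all gene coordinates that follow, minus strand) had the largest log2 fold change of the 10 genes in each of the 3 forms. Its normalized count was 463 in gh03, 1056.5 in gh09 and 576 in gh15, the Robo1+/+ libraries, against 143 in gh06, 300.5 in gh12 and 220 in gh18, the Robo1-/- libraries. Every Robo1-/- library lay below every Robo1+/+ library, and the Robo1-/- mean (221 ± 78.9, SD, n = 3) was 31.7% of the Robo1+/+ mean (699 ± 315). These values rest on 124 to 1348 reads per library. The log2 fold change was -1.63 (SE 0.41), -1.45 (SE 0.40) with the GC correction and -1.66 (SE 0.44) without gh18. Leaving out single libraries gave values from -1.88 to -1.28, the latter without gh09, in which *Hspb8* was highest. The normalized count of *Hspb8* in gh18 lay between those in gh06 and gh12, so its low level in Robo1-/- cells did not depend on that library. Because these are RNA levels of a sorted population, fewer *Hspb8*-expressing cells and less *Hspb8* RNA per cell cannot be told apart. Of the 75-base pieces of its longest coding transcript, 0% matched elsewhere in the genome with up to 2 mismatches.

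Of the 10 genes, *Hspb8* and *Cryab* were the 2 whose genotypes did not overlap. Both were lower in Robo1-/- libraries. Over all tested genes, groups did not overlap for 9.41%, and 4.58% were lower without overlap. Without gh18, *Hspb8*, *Cryab*, *Hsph1* and *Hsp90aa1* did not overlap, all lower in Robo1-/- libraries, where the share of all tested genes was 20.3% in either direction and 10.1% lower. *Hspb8* was chosen with its fold change in these libraries known, so its place in both counts is not independent of that choice. Among the remaining genes, *Cryab* alone did not overlap with all 6 libraries. Nothing is read from these counts.

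*Bag3* (kgCluster24172; chromosome 7 from 135667097 to 135690491), the partner of *Hspb8* in client handover, had normalized counts of 1088, 1448 and 1518 in the Robo1+/+ group and 1405, 1238 and 562 in the Robo1-/- group. The groups overlapped, and gh18 was the only Robo1-/- library below all Robo1+/+ libraries. Its log2 fold change was -0.43 (SE 0.38) with all libraries, 0.07 (SE 0.15) with the GC correction and -0.02 (SE 0.19) without gh18. Outside gh18, *Bag3* was within its Robo1+/+ range in Robo1-/- cells, where *Hspb8* was below its own. *Hspb8* amounted to 42.6%, 73.0% and 37.9% of the *Bag3* count in Robo1+/+ libraries and to 10.2%, 24.3% and 39.2% in Robo1-/- libraries. These shares overlapped through gh18, where the *Bag3* count was low. On the GC-corrected log2 scale, *Hspb8* minus *Bag3* was -1.10, -0.27 and -1.22 in the Robo1+/+ group. It was -3.10, -1.97 and -2.09 in the Robo1-/- group, without overlap. With each other tested gene in place of *Bag3*, this difference did not overlap for 71.1% of genes. Nothing particular to *Bag3* is therefore read from it.

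*Cryab* (kgCluster26296; chromosome 9 from 50560863 to 50564738) encodes αB-crystallin, a small heat shock protein. Its normalized counts were 356, 342 and 257 in the Robo1+/+ group and 216, 155 and 37.9 in the Robo1-/- group, so all Robo1-/- values were below all Robo1+/+ values. The value in gh18 was 26 reads. The log2 fold change was -1.53 (SE 0.63), -1.29 (SE 0.46) with the GC correction and -0.78 (SE 0.24) without gh18. The direction was the same in each form, and the size was smallest without gh18. The GC correction brought gh18 from -2.71 to -2.04 on the log2 scale, relative to the mean of the other 5 libraries. Basal and myoepithelial cells also express *Cryab*. The 10 markers of those cells summed to 2272, 810 and 1354 in the Robo1+/+ group against 1700, 1014 and 1157 in the Robo1-/- group. These sums overlapped, but single markers differed in direction. *Krt5* had normalized counts of 181, 111 and 133 in the Robo1+/+ group against 123, 63.2 and 32.1 in the Robo1-/- group. The Robo1-/- mean was 51.5% of the Robo1+/+ mean for *Krt5* and 49.2% for *Krt14*, both with overlap, and 42.8% for *Cryab*. Of the 10 markers, 6 had a positive log2 fold change with all libraries, and the median was 0.19. The part of these cells in the *Cryab* values was not tested.

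*Hspb1* (kgCluster19864; chromosome 5 from 136363789 to 136365433), the gene of HSP27/HSP25 and the most abundant small heat shock protein gene here, had normalized counts of 2050, 3443 and 3669 in the Robo1+/+ group and 2991, 2200 and 140 in the Robo1-/- group. Robo1-/- replicates gh06 and gh12 were within the Robo1+/+ range, and gh18 was far below every other library. The log2 fold change of -1.60 (SE 1.09) was similar in size to that of *Hspb8*, but it was -0.61 (SE 0.45) with the GC correction and -0.21 (SE 0.29) without gh18. *Hspb1* has the highest transcript GC content of the 10 genes (61.7%) and varied within genotypes more than 98.1% of tested genes. Its 75-base pieces matched elsewhere in the genome for 72.4% with up to 2 mismatches, so its count may depend on how reads with several matches were treated, which is not given in the sources used here.

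The stress-inducible HSP70 genes differed more between libraries of the same genotype than between the genotypes' means. *Hspa1b* (kgCluster10803; chromosome 17 from 35093381 to 35096183) had normalized counts of 2391, 1808 and 1124 in the Robo1+/+ group and 3555, 973 and 1309 in the Robo1-/- group. The highest and the lowest of the 6 values were both Robo1-/-, in gh06 and gh12. *Hspa1a* (kgCluster10804; chromosome 17 from 35106144 to 35109069) had counts of 1583, 1025 and 651 in the Robo1+/+ group and 2314, 486 and 530 in the Robo1-/- group, with the same library highest. Their log2 fold changes were -0.03 (SE 0.52) and -0.27 (SE 0.64), which were 0.64 (SE 0.56) and 0.51 (SE 0.59) with the GC correction and 0.14 (SE 0.56) and 0.06 (SE 0.67) without gh18. Neither kept one sign over the 17 alternative settings. The sign of *Hspa1b* was the same as in the main comparison in 8 of them and that of *Hspa1a* in 10.

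*Hspa1a* and *Hspa1b* encode nearly the same protein, and 55.6% of the 75-base sequences of *Hspa1b* occur in *Hspa1a*. Their separate counts are therefore uncertain, and the sum of both was 3973, 2833 and 1775 in the Robo1+/+ group and 5870, 1459 and 1839 in the Robo1-/- group. The ratio of *Hspa1a* to *Hspa1b* was between 0.405 and 0.662. Across the 6 libraries the log2 values of the pair had a Pearson correlation of 0.98, with and without the GC correction. This is a description over 6 libraries of genes that share reads.

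The order of the libraries by *Hspa1a* and *Hspa1b* was not that of *Hspb8*. In gh06, with the most *Hspa1a* and *Hspa1b*, *Hspb8* was lowest of all libraries. In gh12, with the lowest counts of both HSP70 genes, *Hspb8* was the highest of the Robo1-/- libraries. This order is that before the GC correction. After it, *Hspa1a* and *Hspa1b* were highest in gh18 (log2 values 10.81 and 11.90, against 10.68 and 11.38 in gh06). *Hspb8* was then 8.20 in gh18 and 8.14 in gh12, and it was still lowest in gh06 (7.08). The log2 values of *Hspb8* had Pearson correlations of -0.17 with *Hspa1a* and -0.28 with *Hspa1b* over the 6 libraries (-0.45 for both with the GC correction), given as a description of 6 points that differ in genotype and depth. Set against *Dnajb1*, *Hspb8* amounted to 12%, 19.2% and 15.3% in the Robo1+/+ group and to 3.03%, 6.55% and 7.98% in the Robo1-/- group. Of the 9 other chaperones taken in turn as the reference, *Dnajb1* was the 1 for which the log2 difference from *Hspb8* did not overlap between genotypes, and *Dnajb1* and *Bag3* were the 2 after the GC correction. With each other tested gene as the reference, the difference did not overlap for 65.5% of genes, and for 71.1% after the GC correction. Since *Hspb8* itself did not overlap, most references give such a difference, and nothing is read from the counts for the 9 chaperones.

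**Figure D2:**
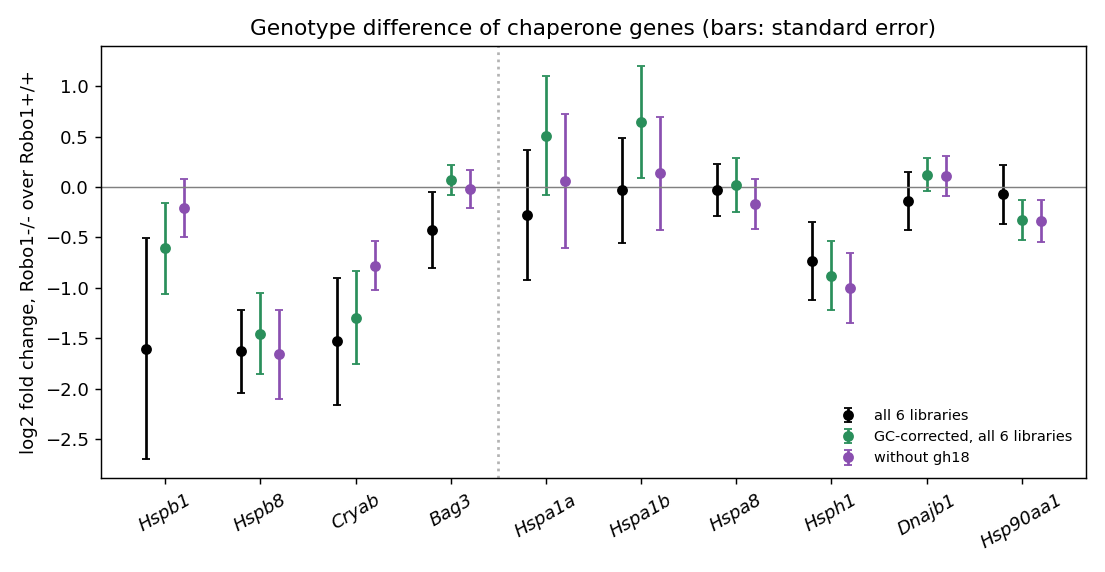
Log2 fold change (Robo1-/- over Robo1+/+) of each chaperone gene from limma on log2(value + 1). Points are estimates with all 6 libraries (black), after the GC correction (green) and without gh18 (purple), and bars are standard errors. *Hspb8* lies between -1.66 and -1.45 in the 3 forms, and *Hspb1* moves from -1.60 to -0.21 without gh18.

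*Hsph1* (kgCluster20112; chromosome 5 from 150416862 to 150438951), whose HSP110 protein resets HSP70, was the remaining gene with a difference of one sign in all 17 settings. Its normalized counts were 2832, 1810 and 2111 in the Robo1+/+ group and 1627, 749 and 1916 in the Robo1-/- group. The groups overlapped through gh18. The fitted log2 difference was -0.74 (SE 0.39), -0.88 (SE 0.34) with the GC correction and -1.0 (SE 0.35) without gh18. It depended most on gh12, without which it was -0.32.

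*Hsp90aa1* (kgCluster5658; chromosome 12 from 111928815 to 111940938), the inducible cytosolic HSP90, had normalized counts of 22427, 16373 and 17586 in the Robo1+/+ group and 16221, 13416 and 25511 in the Robo1-/- group. The highest value was in gh18 and the lowest in gh12. Between genotypes the log2 fold change was -0.07 (SE 0.29), -0.32 (SE 0.20) with the GC correction and -0.34 (SE 0.21) without gh18. *Hsp90aa1* and *Hsph1* had the lowest transcript GC content of the 10 genes (43.7% and 47.4%), and after the GC correction their log2 values had a Pearson correlation of 0.97 over the 6 libraries. For *Hsp90aa1*, 84.1% of 75-base pieces matched elsewhere in the genome, so its count is uncertain in the same way as that of *Hspb1*.

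*Hspa8* (kgCluster26149; chromosome 9 from 40609067 to 40613283), the constitutive HSP70, had normalized counts of 38365, 27256 and 25753 in the Robo1+/+ group and 29335, 24216 and 35491 in the Robo1-/- group. It varied less within genotypes than most genes, with 26.7% of tested genes below it. Its log2 fold change was -0.03 (SE 0.26), 0.02 (SE 0.27) with the GC correction and -0.17 (SE 0.25) without gh18. Pieces of *Hspa8* matched elsewhere for 83.2%.

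*Dnajb1* (kgCluster25095; chromosome 8 from 86132074 to 86135801), the inducible HSP40, had normalized counts of 3860, 5510 and 3760 in the Robo1+/+ group and 4711, 4590 and 2761 in the Robo1-/- group. Robo1-/- replicates gh06 and gh12 were within the Robo1+/+ range. Its log2 fold change was -0.14 (SE 0.29), 0.12 (SE 0.16) with the GC correction and 0.11 (SE 0.20) without gh18, a difference smaller than its SE in each form. None of its 75-base pieces, nor any of *Bag3*, *Cryab* or *Hsph1*, matched elsewhere.

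Taken as groups, *Hspb1*, *Hspb8*, *Cryab* and *Bag3* had a median log2 fold change of -1.56, against -0.95 with the GC correction and -0.49 without gh18. The 6 HSP70, HSP110, HSP40 and HSP90 genes had medians of -0.11, 0.07 and -0.055 in the same order. All tested genes had medians of 0.0022, 0.0035 and 0.0033. Without gh18 the median of the first group was nearer to 0. That group holds *Hspb8*, chosen with its fold change known, and *Hspb1*, which had -1.60 with all libraries and -0.21 without gh18. The medians are therefore a description, and no difference between the 2 groups is read from them.

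The position of gh18 among the libraries differed from gene to gene. Before the GC correction, gh18 was above the mean of the other 5 libraries for *Hsp90aa1* (0.59 on the log2 scale), *Hspa8* (0.31) and *Hsph1* (0.19), the 3 genes with the lowest transcript GC content, and below it for the other 7, down to -4.31 for *Hspb1*. After the correction, *Bag3* (0.16), *Dnajb1* (0.06), *Hsph1* (-0.18) and *Hsp90aa1* (-0.08) were near the other libraries. *Hspa1a* (1.17) and *Hspa1b* (1.44) were then above them, and *Cryab* (-2.04) and *Hspb1* (-1.63) stayed below. The correction also changed how genes moved together. *Hspb1* and *Bag3* had a Pearson correlation of 0.99 over the 6 libraries before it and -0.10 after it, as a description of 6 points of which gh18 is one.

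**Figure D3:**
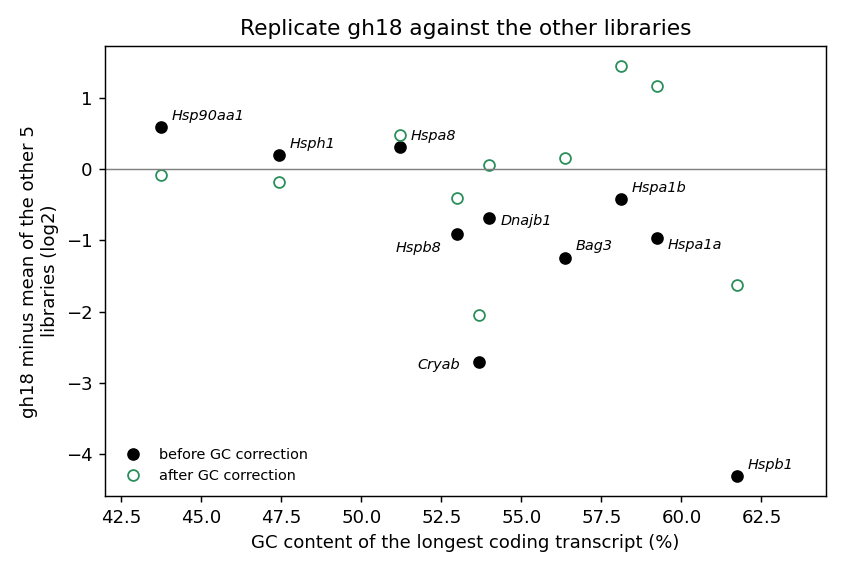
Level in gh18 relative to the mean over the remaining 5 libraries (log2 difference, vertical axis) against transcript GC content in percent (horizontal axis) for the 10 chaperone genes, before (black) and after (green, open) the GC correction. *Hspb1*, at 61.7% GC, lies at -4.31 before and -1.63 after the correction.

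The rest of the chaperone system and other stress genes were followed in 10 lists written from general knowledge, which hold none of the 10 genes. Of 115 listed genes, 106 known-gene clusters were tested. By limma, 1 was higher and 1 was lower in Robo1-/- libraries before adjustment, where over all tested genes 0.767% were higher and 0.92% lower. After adjustment 0 passed, as with edgeR and DESeq2. Both were among 23 immediate early genes, which respond within minutes to stimuli, tissue dissociation included. *Klf6*, a transcription factor gene, had normalized counts of 21704, 20545 and 23099 in the Robo1+/+ group and 30435, 31100 and 29946 in the Robo1-/- group (log2 fold change 0.49, SE 0.19, adjusted p = 0.86 from limma), and 0.20 with the GC correction. *Egr3*, another transcription factor gene, had 475, 162 and 213 in the Robo1+/+ group and 190, 82.4 and 54.0 in the Robo1-/- group (log2 fold change -1.41, SE 0.58, adjusted p = 0.86 from limma), and -0.39 with the GC correction. With that correction, 2 genes of the lists were higher (*Egr1*, 0.57, and *Zfp36*, 0.59) and 1 was lower (*Dnaja1*, -0.39), each with an adjusted p of 1.0 from limma, where 0.915% of all tested genes were higher and 0.683% lower.

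Without gh18, 7 of the 23 immediate early genes were higher in Robo1-/- libraries at an unadjusted p under 0.05 (*Egr1*, *Ier3*, *Atf3*, *Btg2*, *Zfp36*, *Nr4a1* and *Klf6*, named after their values were seen) and 0 were lower, where 1.92% of all tested genes were higher and 2.31% lower. Their log2 fold changes were between 0.49 and 0.72, each with an adjusted p of 0.94 from limma. The median log2 fold change of all 23 genes was 0.07 with all libraries, 0.32 with the GC correction and 0.48 without gh18. Positive values were found for 14, 21 and 21 of the 23 in the same order. The summed normalized counts of the 23 genes were 164317, 151118 and 131843 in the Robo1+/+ group and 244212, 174735 and 110060 in the Robo1-/- group, highest in gh06 and lowest in gh18. After the GC correction, the mean log2 value of the 23 genes was still highest in gh06 (12.07). In gh18 (11.63) it was then above gh12 (11.49), gh09 (11.33) and gh15 (11.16). By normalized count, gh06 was also the library with the most *Hspa1a* and *Hspa1b* and the least *Hspb8*. With the GC correction, gh18 had the most *Hspa1a* and *Hspa1b*. The part of tissue dissociation in the *Hspb8* values was not tested.

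With all 6 libraries and no GC correction, 0 genes of the other lists had an unadjusted p under 0.05 by limma. Of the other small heat shock protein genes, *Hspb6* alone had enough reads to test (20.4 to 52.5 normalized counts in Robo1+/+ and 30.6 to 50.4 in Robo1-/- libraries, log2 fold change 0.0084, SE 0.47). *Hspb2*, *Hspb7*, *Hspb9* and *Cryaa* had too few reads. Among 10 other BAG proteins and BAG3 partners, the median log2 fold change was -0.24, and *Sqstm1*, the autophagy receptor to which BAG3 cargo is handed, had -0.25 (SE 0.44). That median was 0.03 with the GC correction and 0.02 without gh18. The medians were 0.17 for 8 other HSP70 and HSP110 genes (*Hspa9*, the mitochondrial HSP70, 0.24, SE 0.31), -0.03 for 11 other HSP40 genes (*Dnaja1*, -0.08, SE 0.27) and -0.16 for 15 other HSP90 genes and co-chaperones (*Hsp90ab1*, the constitutive cytosolic HSP90, -0.14, SE 0.24). With the GC correction these medians were -0.07, -0.02 and -0.14, and without gh18 they were 0.03, 0.05 and -0.15. Of the 15 HSP90 genes and co-chaperones, 6 had a positive log2 fold change with all libraries, and 0 in either other form.

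The 10 chaperonin genes, whose products fold newly made proteins in closed rings, had a median of -0.03 (*Cct2*, -0.04, SE 0.20). Of the heat shock factor genes and *Hsbp1*, which encodes an HSF1-binding protein, 3 were tested, with a median of 0.0020, the value of *Hsbp1* itself. The median of the 3 was -0.10 with the GC correction and -0.14 without gh18. *Hsf1*, named here after its values were seen, had normalized counts of 635, 669 and 662 in the Robo1+/+ group and 632, 498 and 233 in the Robo1-/- group. All 3 Robo1-/- values were below all Robo1+/+ values, as they were for 4.58% of all tested genes. The gap was small for gh06 and largest for gh18. The log2 fold change of *Hsf1* was -0.64 (SE 0.38), 0.0061 (SE 0.19) with the GC correction and -0.22 without gh18. The 17 genes of the endoplasmic reticulum chaperones and the unfolded protein response had a median of -0.05 (*Hspa5*, the HSP70 of that compartment, 0.08, SE 0.21), and 8 genes of oxidative and metal stress had -0.29 (*Txnrd1*, a thioredoxin reductase gene, -0.23, SE 0.17). With the GC correction these medians were -0.04 and -0.17, and without gh18 they were 0.04 and -0.15. For comparison, the middle 50% of all tested genes had log2 fold changes between -0.39 and 0.24 with all libraries. That range was -0.16 to 0.16 with the GC correction and -0.17 to 0.19 without gh18.

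**Figure D4:**
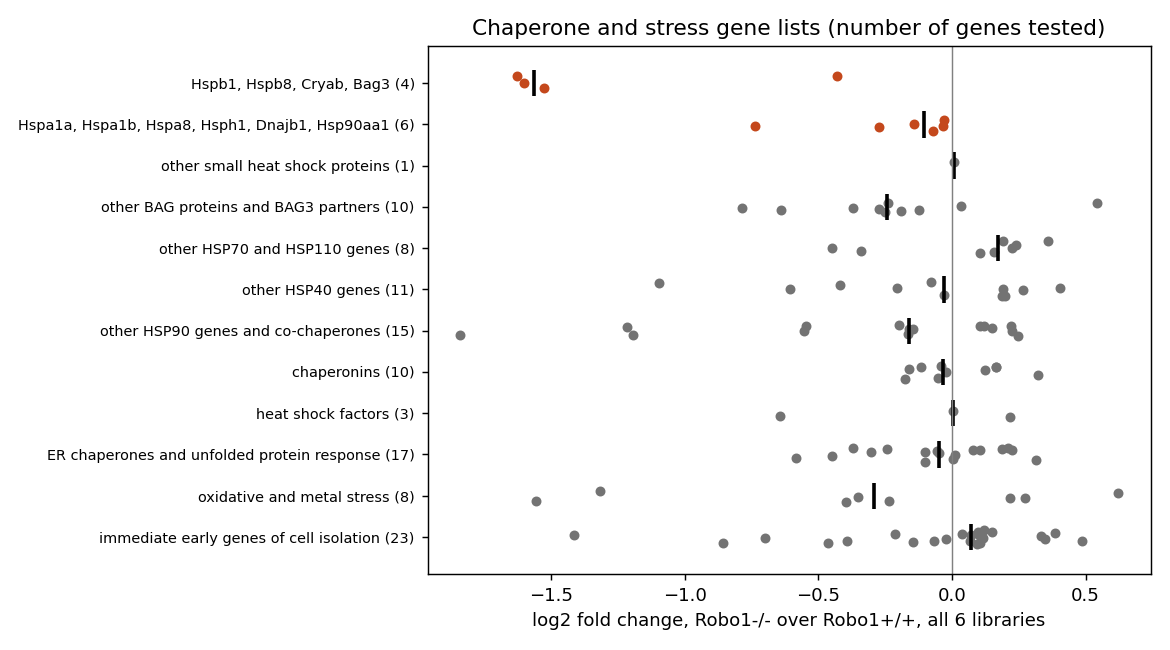
Log2 fold change (Robo1-/- over Robo1+/+, all 6 libraries) of each tested gene in the chaperone and stress lists, with the median of each list as a black bar and the number of genes tested in parentheses. The 10 chaperone genes are in orange, and *Hspb8*, *Hspb1* and *Cryab* lie between -1.63 and -1.53.

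The genes whose profile over the 6 libraries was most like that of *Hspb8* were sought among 11486 genes with a mean normalized count of at least 50. They were *Fam168b* (Pearson's r = 0.97), *Tnfaip8l1* (0.97), *Robo1* (0.96), *Trp53rk* (0.95) and *Abcb6* (0.95). These are the highest of many correlations over 6 libraries, and they also hold the genotype difference known when *Hspb8* was chosen. No shared regulation is read from them. The Robo1-/- mean was 92.7% of the Robo1+/+ mean for *Fam168b* and 55.1% for *Tnfaip8l1*. *Tnfaip8l1* had normalized counts of 76.3, 120 and 109 in the Robo1+/+ group and 49.5, 63.2 and 55.5 in the Robo1-/- group. The nearest of the other chaperones was *Cryab*, at rank 517 (0.55), and *Bag3* was at rank 1948 (0.39). With the GC correction the 5 most alike were *March9*, *Nt5c2*, *Zfp119b*, *Gmpr2* and *Pqlc1* (0.94 to 0.96), so none of the first 5 remained. For *Hspa1b* the most alike were *Pard3* (0.98), *Hspa1a* (0.98), *Arl3* (0.96), *Crebbp* (0.96) and *Prom2* (0.95), and *Pard3* (0.99) and *Hspa1a* (0.98) remained among the first 5 with the GC correction.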

How the data were processed

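Poly(A)+ RNA of sorted luminal progenitors was sequenced in 6 libraries, grouped by the genotype in the labels. For every known-gene cluster the authors deposited a normalized signal, the read count after division by a size factor for the library. According to the study's methods, reads were trimmed to 75×75 bp and cleared of repeats with bowtie2. They were aligned by TopHat to NCBI37/mm9, and their counts were scaled by DESeq2 (DESeq in the submitters' processing notes). The counting tool, its use of strand and its treatment of reads with several matches are not given in the sources used here. Every value came out as a whole number of reads within 0.01 (100% of values), which gave the reads per library.

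Log2(value + 1) was compared with limma (version 3.58.1, R 4.3.3; empirical Bayes trend, Benjamini-Hochberg adjustment) for 13692 genes kept by filterByExpr of edgeR (version 4.0.16). On this scale fold changes of low genes are understated. The p-values measure the spread between libraries of 2 pooled animals each. DESeq2 (version 1.42.0), edgeR, limma-voom, other scalings, filters and pseudocounts and leaving out each library were alternatives. For the GC correction, log2 deviations from the gene mean were smoothed within each library against GC content of the longest coding transcript in GENCODE release M1 (build NCBI37; lowess, span 0.3), and the smooth was subtracted, for 12453 tested genes. Pieces of 75 bases, every 15 bases, were mapped to NCBI37 with minimap2 (version 2.31), singly and not as read pairs. In simulated data for this comparison with 13692 genes, limma called 172 of 200 genes changed by a log2 fold change of 2, with 6 false calls. The changed genes had a mean normalized count of at least 50. The simulated spread was that of the libraries without gh18, and no GC trend was simulated. The simulation therefore does not give the power of the comparison that includes gh18. The 10 genes, the lists and the GC correction were chosen with earlier results of these data known. Genes named from each list were the most abundant one and at most 3 per direction with an unadjusted p under 0.05, and 5 genes most like *Hspb8* and *Hspa1b*. *Hsf1*, and list genes named for the fits with the GC correction or without gh18, were named outside this rule after their values were seen.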

Additional observations from a re-analysis of the deposited data

How the results depend on the processing

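No paired analysis was run, because the labels do not say which libraries of the genotypes belong together. Pairs or batches among the libraries were therefore not taken into account. The log2 fold change of *Hspb8* stayed between -1.88 and -1.28 over all 17 alternatives. Those of *Hspb1*, *Cryab* and *Hsph1* also kept their sign in 17 of 17, but not their size. *Bag3* kept its sign in 15, *Hsp90aa1* in 15, *Hspa8* and *Dnajb1* in 13, *Hspa1a* in 10 and *Hspa1b* in 8. The number of genes with an adjusted p under 0.05 was 0 in every setting except DESeq2, which called 1, and that gene is none of those named here. The number with an unadjusted p under 0.05, 231 in the main comparison, was 415 with no filter on low values and 558 with the GC correction and gh18 left out, and between 117 (without gh15) and 879 (without gh06) with each library left out. Of these, 126 were lower in Robo1-/- in the main comparison, 242 with no filter, 303 with the GC correction and gh18 left out, and between 56 (without gh15) and 667 (without gh06) with each library left out. Of the 106 other chaperone and stress genes, 2 had an unadjusted p under 0.05 in the main comparison, 1 with edgeR, limma-voom or at least 10 reads in every library, 3 with DESeq2 or the GC correction, 8 with the GC correction and gh18 left out, and between 0 (without gh03 or gh12) and 9 (without gh06) with each library left out. The causes were not tested. A depth of 26 reads limits *Cryab* in gh18.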
